A study of Mus musculus with 6 samples.

Results

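The genes described here encode 10 chaperones and proteases of mitochondria, *Hspd1*, *Hspe1*, *Hspa9*, *Trap1*, *Lonp1*, *Clpx*, *Clpp*, *Afg3l2*, *Spg7* and *Htra2*, which are commonly read as a transcript-level measure of the mitochondrial unfolded protein response. They were taken by symbol from the deposited count table, which lists 53465 genes, and not by their values. All 10 were in the table and had counts, and 9 of them were among the 11842 genes abundant enough to be tested. *Clpp* was not.

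The transcriptome was sequenced in 6 pools of M II oocytes, that is, oocytes matured to the second meiotic metaphase, from Kunming (KM) female mice aged 9-10 months. The 3 control pools came from in vitro maturation (IVM) without quercetin and the 3 quercetin pools from IVM with 10 μM quercetin, a plant flavonoid that was dissolved in DMSO. Both arms were cultured for 16 h, and each pool held 15 oocytes from 3 mice, so single oocytes and single animals are not resolved. The strain is outbred, both groups were aged, and no pool of young oocytes entered the comparison. The sources do not say whether the pools of the 2 groups shared mice, so a p-value here measures the spread between pools and nothing wider.

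Most mitochondrial proteins are made in the cytosol and threaded unfolded through the mitochondrial membranes. The matrix Hsp70, encoded by *Hspa9*, pulls them in, and the chaperonin formed by HSPD1 and its lid HSPE1 encloses and folds them. Proteins that fail to fold or are damaged by oxidation are degraded by proteases. Among the ATP-dependent ones, LONP1 and the CLPX-CLPP complex work in the matrix and the m-AAA protease of AFG3L2 and SPG7 in the inner membrane. HTRA2, which needs no ATP, works in the space between the membranes. When misfolded protein builds up in the matrix, cells can raise transcription of such genes, and in mammals this response overlaps with the ATF4 branch of the integrated stress response. Fully grown oocytes make little or no new RNA until after fertilization, and use stored maternal transcripts whose poly(A) tails are lengthened or shortened as maturation proceeds. Libraries of this kind are primed on the poly(A) tail, so a difference in the amount of a transcript and a difference in its tail length cannot be told apart here, nor can fewer cells of a type and less RNA per cell.

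None of the 9 tested genes differed between quercetin and control pools at the study's thresholds, a change of more than 2-fold with an adjusted p below 0.05. By edgeR's quasi-likelihood test 0 of 9 passed, beside 0% of all tested genes. At these thresholds the paper reported both up- and down-regulated genes without naming a test of counts, and this fit returned no such calls. With no gene called anywhere, 0 of 9 says little about these genes in particular. At an unadjusted p under 0.05 the count was also 0 of 9, beside 4.03% of all tested genes, and DESeq2 gave 0 of 9 there too. DESeq2 gave an adjusted p to 7 of the 9, not to *Trap1* and *Spg7*, and called 0 of those 7, while calling 12 of all 11842 tested genes. The log2 fold change, quercetin over control, was positive for 3 genes and negative for 6. Its median over the 9 was -0.17, beside -0.026 over all tested genes, of which the middle 50% ran from -0.24 to 0.17. Together the 10 genes took 0.0378% ± 0.00504 (SD, n = 3) of all counts in control pools and 0.0372% ± 0.00501 (SD, n = 3) in quercetin pools, a difference within the spread between pools (two-sided exact permutation test, p = 1). *Hspa9* alone made up 49.6% to 57.6% of these counts.

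**Figure D1:**
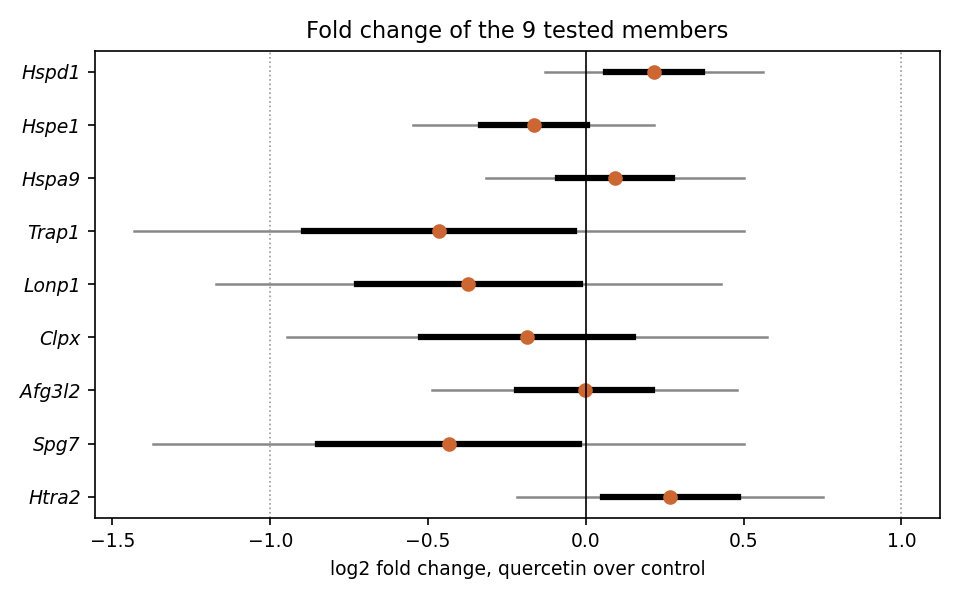
Fold change of each of the 9 tested genes, quercetin over control, on the log2 scale (x axis). Points are edgeR estimates, thick bars 1 standard error and thin bars the 95% interval, and dotted lines mark a fold change of 2 in either direction. Every interval includes 0, and those of *Trap1*, *Lonp1* and *Spg7* reach beyond the lower dotted line.

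Depth was alike in the 2 groups. Total counts per pool ran from 7880467 to 9938743, and a gene at 3 counts, the limit below which a value is read here as a floor, stood at 0.302 to 0.381 CPM (counts-per-million, unscaled). The 9 oocyte markers (among them *Gdf9*, *Bmp15* and *Zp3*) summed to 15960 to 19864 CPM in control and 17559 to 19255 CPM in quercetin pools, with no marker at 0. *Gdf9* and *Oosp1* made up most of this sum, and single markers varied more. *Zp1*, *Zp2*, *Zp3* and *Nlrp5* were lowest in pool 1 of both groups (*Zp2* from 131 to 1560 CPM over all pools), and *Ooep* averaged 718 CPM in control and 381 CPM in quercetin pools with overlap (log2 fold change -0.92, SE 0.38, edgeR adjusted p = 0.988). The 10 cumulus or granulosa markers summed to 62.8 to 77.6 CPM in control and 79.2 to 85.1 CPM in quercetin pools. Most of this was *Cyp19a1* (means of 64.3 and 74.6 CPM), which was higher in every quercetin pool than in every control pool, as for 5.42% of all tested genes. The sum of the other 9 markers was 6.12 to 10.1 CPM in quercetin pools, within the range of the control pools. Among them *Tnfaip6* had 0 counts in each control pool and 2, 8 and 4 in quercetin pools 1 to 3. *Ptgs2* averaged 2.09 CPM in control and 1.31 CPM in quercetin pools with overlap. *Ptx3*, *Amh* and *Foxl2* were at 0 in all 6 pools. The part of these markers in the results below was not tested. The 3 blood markers summed to at most 0.589 CPM in any pool.

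Among the 10 genes, *Hspd1* and *Hspe1* are neighbours. They lie head to head on chromosome 1 and are transcribed away from each other, *Hspd1* (ENSMUSG00000025980, 55077835 to 55088243, minus strand) and *Hspe1* (ENSMUSG00000073676, 55088132 to 55091307, plus strand; GENCODE M21, GRCm38). RefSeq places the start of *Hspe1* at 55088148 and gives *Hspd1* a start on either side of it, at 55087932 and 55088243. The promoter windows listed by RefSeq (250 bases before to 50 after a start) covered 7 of the 10 genes in 8 windows, a pair of them for *Hspd1*. *Hspa9*, *Afg3l2* and *Htra2* were not among them. In these windows 5 motifs were searched on both strands, and the sites below are shown because they are the stress-related ones that were found. The capitals mark the motif, each sequence is written 5′ to 3′ and comes from RefSeq on GRCm38.p6.
*Hspd1* and *Hspe1*, heat shock element core, chr1:55088053-55088082, plus strand: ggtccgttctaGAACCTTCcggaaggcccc
*Trap1*, cAMP response element, chr16:4077839-4077868, minus strand: gtcgcgcgccaTGACGTCActgagccgccc

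The heat shock core (GAANNTTC, which reads alike on both strands) lies 77 bases before the *Hspe1* start and 132 bases before the nearer *Hspd1* start. By the annotation it falls in the untranslated first exon of a longer *Hspd1* transcript and outside any *Hspe1* exon. It stood in 2 of the 8 windows as 1 shared site, and 7.86% of all 32851 windows hold such a core. That share is for the core alone. In the printed stretch a further TTC stands before the core and a further GAA after it, and such flanks were not searched. The cAMP response element (TGACGTCA) of *Trap1* lies 40 bases before its start and in no exon, and 1.79% of all windows hold one. The GC box (GGGCGG) was in 7 of 8 windows, all but that of *Clpp*, and in 35.7% of all windows, and the CCAAT box was in 2 of 8 (*Clpx* and the outer *Hspd1* window) and in 37.4%. The composite element read by ATF4 and CHOP (TGATGNAA) was in 0 of 8 windows and in 3.97% of all. Letters in a window are a description and not a site of binding, and the windows of *Hspd1* and *Hspe1* overlap, so they are not independent.

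HSPD1 (Hsp60) and HSPE1 (Hsp10) form the barrel and the lid of the matrix chaperonin. *Hspd1* was at 54.2, 52.9 and 55.0 CPM in control pools 1 to 3 and at 63.0, 57.9 and 67.3 CPM in quercetin pools 1 to 3. Every quercetin pool was thus above every control pool, as it was for 5.42% of all tested genes. The log2 fold change was 0.22 (SE 0.15, 95% interval -0.13 to 0.56) and did not pass the test (edgeR, p = 0.192, adjusted p = 0.988; exact permutation test p = 0.1, the smallest that 3 against 3 can give). Scaled by library size alone, the groups overlapped, because quercetin pool 2 then stood at 53.1 CPM and the control pools at 54.9 to 55.8 CPM.

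*Hspe1* stood the other way. It was at 39.8, 42.7 and 40.6 CPM in control pools and at 38.2, 38.3 and 33.3 CPM in quercetin pools. All 3 quercetin pools were below all 3 control pools, as for 5.17% of all tested genes, and here with library size alone as well. The difference was small, with a log2 fold change of -0.17 (SE 0.17, 95% interval -0.55 to 0.22; edgeR p = 0.352, adjusted p = 0.988; exact permutation test p = 0.1). These were the only 2 of the 9 tested genes whose groups did not overlap, 1 in each direction.

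The ratio of these partners within a pool does not depend on how pools are scaled. Counts of *Hspd1* were 1.36, 1.24 and 1.35 times those of *Hspe1* in control pools and 1.65, 1.51 and 2.02 times in quercetin pools. The log2 ratio was 0.397 ± 0.0758 (SD, n = 3) in control and 0.777 ± 0.214 (SD, n = 3) in quercetin pools, a difference of 0.38 without overlap. The two-sided exact permutation test gave p = 0.1, the smallest it can give, and 0.3 after adjustment over the 3 partner ratios examined. The ratio was computed from the 2 genes whose groups did not overlap, so it adds no separate evidence. Leaving out 1 pool at a time gave differences of 0.26 to 0.47, the lowest without quercetin pool 3.

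Both genes share sequence with processed pseudogenes, and how reads that match several genes were counted is not given in the sources used here. Of the 31-base words in the *Hspd1* transcripts, 50.1% occurred also in transcripts of other genes, and for *Hspe1* 24.8%. The 5 *Hspd1* pseudogenes held counts equal to 27.6% to 32.7% of those of *Hspd1*, all of them on *Hspd1-ps3* (135, 144 and 150 counts in control, 139, 151 and 169 in quercetin pools). The 6 *Hspe1* pseudogenes held 1.41% to 3.15%. With pseudogene counts added to both genes the difference in log2 ratio was 0.36. The first exons of the pair also overlap on opposite strands, over 4.24% of the *Hspd1* and 7.60% of the *Hspe1* exon length.

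**Figure D2:**
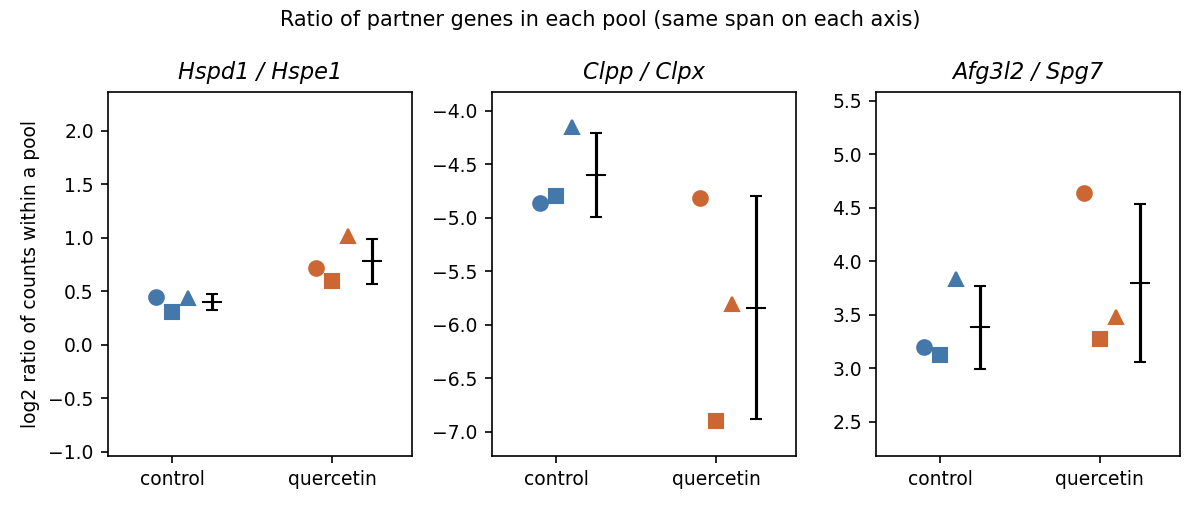
Log2 ratio of the counts of partner genes within each pool (y axis, 0.5 added to each count), for the chaperonin pair, the CLPXP pair and the m-AAA pair, with the same span of log2 units on each axis. Circles, squares and triangles are pools 1, 2 and 3, and bars show the mean ± SD of 3 pools. For *Hspd1* over *Hspe1* the quercetin pools lie above the control pools, and the other 2 ratios overlap between groups.

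*Hspa9* (ENSMUSG00000024359, chromosome 18, 34937414 to 34954357, minus strand) encodes mortalin, the matrix Hsp70 that drives import and hands clients to the chaperonin. It was the most abundant of the 10 genes, at 242, 172 and 174 CPM in control and 239, 184 and 206 CPM in quercetin pools. Pool 1 was the highest of its group on both sides, and the groups overlapped throughout. The log2 fold change was 0.09 (SE 0.18, 95% interval -0.32 to 0.50; edgeR adjusted p = 0.990). It shares 9.66% of its 31-base words with *Hspa9-ps1*, which held at most 4 counts in any pool.

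*Trap1* (ENSMUSG00000005981, chromosome 16, 4039971 to 4077827, minus strand) encodes the mitochondrial Hsp90. It stood at 3.59, 7.33 and 3.15 CPM in control and 3.51, 2.08 and 4.59 CPM in quercetin pools. Control pool 2 was the highest, with 61 counts, quercetin pool 2 the lowest, with 19, and the other 4 pools lay between 28 and 39 counts. The log2 fold change of -0.47 (SE 0.43, 95% interval -1.43 to 0.50; edgeR adjusted p = 0.988) was the most negative of the 9 and rested on control pool 2, since without that pool it was 0.0081.

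LONP1 degrades oxidised and misfolded proteins of the matrix and binds mitochondrial DNA. *Lonp1* (ENSMUSG00000041168, chromosome 17, 56614297 to 56626887, minus strand) was at 6.62, 7.45 and 4.05 CPM in control and 3.88, 3.51 and 6.59 CPM in quercetin pools. In each group 1 pool stood apart from the other 2, control pool 3 on the low side and quercetin pool 3 on the high side, so the groups overlapped. Its log2 fold change was -0.37 (SE 0.35, 95% interval -1.17 to 0.43; edgeR adjusted p = 0.988; exact permutation test p = 0.2). It was -0.70 without quercetin pool 3 and -0.19 without control pool 2.

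CLPX unfolds substrates and feeds them to the CLPP peptidase. *Clpx* (ENSMUSG00000015357, chromosome 9, 65294260 to 65330658, plus strand) was at 11.3, 11.7 and 12.9 CPM in control and 8.77, 6.47 and 16.4 CPM in quercetin pools. The control pools were close together, while the quercetin pools held the lowest 2 values and the highest. On the log2 scale the fold change was -0.19 (SE 0.34, 95% interval -0.95 to 0.57; edgeR adjusted p = 0.989). Without quercetin pool 3 it was -0.65, with an unadjusted p under 0.05, as for 12.8% of all genes tested without that pool, and an adjusted p of 0.337 by edgeR, and without quercetin pool 2 it was 0.07.

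*Clpp* (ENSMUSG00000002660, chromosome 17, 56990305 to 56996188, plus strand) was barely detected. It had 3, 3 and 6 counts in control and 2, 0 and 2 counts in quercetin pools, so 5 of 6 pools were at or below the floor of 3 counts and the pool at 0 allows up to 0.302 CPM. No fold change is given for it, and a difference was not detectable at this depth. Its partner gene *Clpx* had 59 to 139 counts in the same pools. The log2 ratio of *Clpp* over *Clpx*, which rests on the 0.5 added to each count, differed by -1.24 with overlap (exact permutation test p = 0.2, adjusted p = 0.3), by -0.57 with 2 added instead, and by -0.71 without quercetin pool 2, the pool at 0, to -1.75 without quercetin pool 1.

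AFG3L2 and SPG7 (paraplegin) are subunits of the m-AAA protease, which removes inner-membrane proteins and matures a mitochondrial ribosomal protein. *Afg3l2* (ENSMUSG00000024527, chromosome 18, 67404764 to 67449172, minus strand) was at 35.5, 29.8 and 26.3 CPM in control and 35.8, 24.9 and 30.7 CPM in quercetin pools. The group means were nearly equal and the log2 fold change was -0.0031 (SE 0.21, 95% interval -0.49 to 0.48; edgeR adjusted p = 0.999). *Spg7* (ENSMUSG00000000738, chromosome 8, 123062942 to 123097760, plus strand) was far lower, with 34, 28 and 16 counts in control and 11, 23 and 23 counts in quercetin pools (2.99 ± 1.06 and 2.20 ± 0.720 CPM, SD, n = 3). Control pool 3 and quercetin pool 1 were the low pools, and the estimate was -0.43 (SE 0.41, 95% interval -1.37 to 0.50; edgeR adjusted p = 0.988). It was -0.69 without control pool 3 and -0.19 without quercetin pool 1.

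Counts of *Afg3l2* were 9.29, 8.86 and 14.6 times those of *Spg7* in control pools and 26.0, 9.87 and 11.3 times in quercetin pools. In all 6 pools *Afg3l2* was more abundant than *Spg7* by a wide margin. The log2 ratio differed by 0.41 between groups with overlap (exact permutation test p = 0.5), and by -0.0080 without quercetin pool 1.

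HTRA2 (Omi) is a serine protease of the intermembrane space that also acts in apoptosis once released. *Htra2* (ENSMUSG00000068329, chromosome 6, 83051266 to 83055273, minus strand) had 210, 159 and 142 counts in control and 201, 220 and 181 counts in quercetin pools (19.6 ± 3.81 and 23.5 ± 2.00 CPM, SD, n = 3). Control pools 2 and 3 were below all quercetin pools, and control pool 1 was within their range. The log2 fold change of 0.27 (SE 0.21, 95% interval -0.22 to 0.75; edgeR adjusted p = 0.988; exact permutation test p = 0.2) was the most positive of the 9, and was 0.43 without control pool 1 and 0.15 without control pool 3. Of its exon length 43.7% overlaps *Aup1* and *Loxl3* on the other strand, and since the strand setting of the counting is not given in the sources used here, reads from these genes cannot be told apart there. *Loxl3* had 116, 63 and 58 counts in control and 58, 80 and 41 in quercetin pools, and *Aup1* had 6 to 21 counts in any pool.

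**Figure D3:**
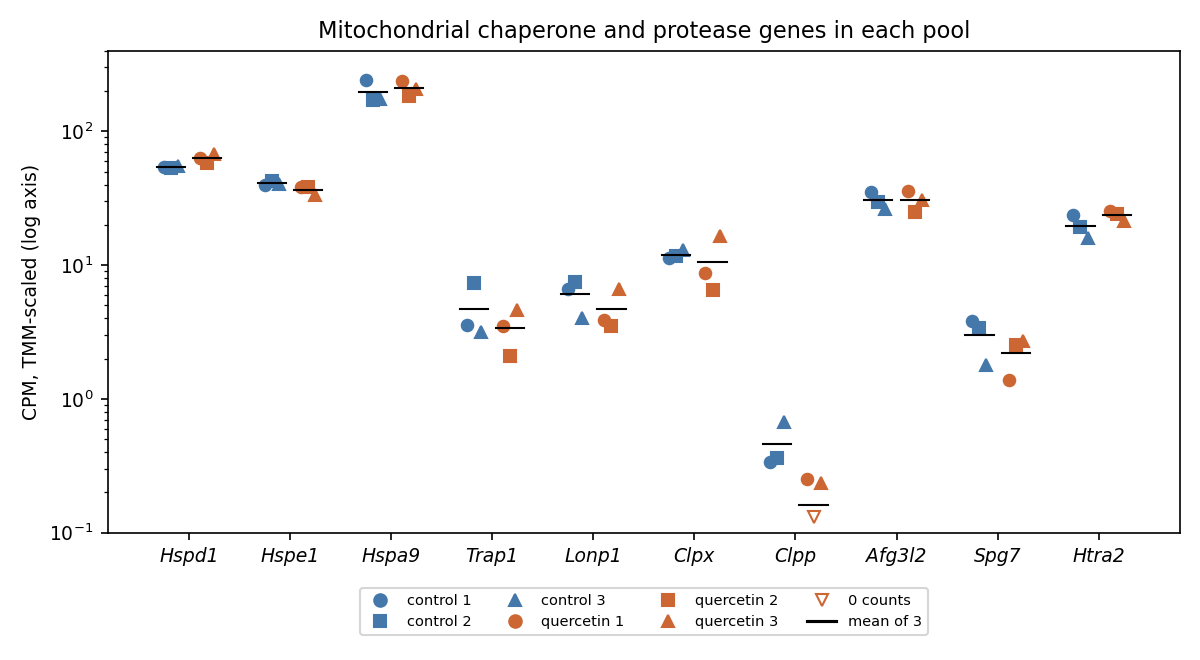
Level of each of the 10 genes in each of the 6 pools, in CPM after TMM scaling (y axis, log scale), with bars at the mean of 3 pools. Shapes mark pools 1, 2 and 3 of each group, and the open triangle is the pool with 0 counts of *Clpp*. The genes span from under 1 CPM (*Clpp*) to 242 CPM (*Hspa9*), and the groups stand apart within a gene for *Hspd1*, *Hspe1* and the scarce *Clpp*.

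Compared with one another per kilobase (kb) of the principal transcript, transcripts of the folding machinery were more abundant than those of the proteases. The sequence that *Hspd1* and *Hspe1* share with other genes and the overlap of *Htra2* on the other strand also bear on this order. *Hspa9* was highest, at 56.4 to 79.5 CPM per kb over the 6 pools, then *Hspe1* at 43.0 to 55.1, *Hspd1* at 21.8 to 27.8, *Htra2* at 9.26 to 14.6 and *Afg3l2* at 8.05 to 11.6. *Clpx* followed at 2.24 to 5.67 CPM per kb, *Lonp1* at 1.19 to 2.53, *Trap1* at 0.898 to 3.16, *Spg7* at 0.476 to 1.32 and *Clpp* at 0 to 0.687. The exception among the chaperones was *Trap1*, which stood with the low proteases. The ranges over pools of neighbours in this order stood apart for *Hspa9* and *Hspe1*, *Hspe1* and *Hspd1*, *Hspd1* and *Htra2*, and *Afg3l2* and *Clpx*. The ranges of the remaining neighbours overlapped. Within every single pool, though, *Htra2* was above *Afg3l2*, *Clpx* above *Lonp1* and *Trap1* above *Spg7*. Per kb of all merged exons *Clpx* preceded *Afg3l2* and *Trap1* preceded *Lonp1*. By that length *Hspe1* (22.6 to 29.0) and *Hspd1* (20.0 to 25.5) overlapped, with *Hspd1* the higher in quercetin pool 3 (25.5 against 22.6). By CPM the genes ran from percentile 92.3 of all tested genes (*Hspa9*) through 79.1 (*Hspd1*) and 72.7 (*Hspe1*) to 28.3 (*Trap1*) and 18.8 (*Spg7*).

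The pools did not order the 10 genes in one way. Quercetin pool 2 was the lowest of the 6 pools for 5 genes, *Trap1*, *Lonp1*, *Clpx*, *Clpp* and *Afg3l2*, and it was the lowest for 22.0% of all tested genes. Control pool 2 was the highest for 3 genes. Quercetin pool 3 stood above the other 2 quercetin pools for *Lonp1*, *Clpx*, *Trap1*, *Spg7* and *Hspd1*, and the share of all genes that did so was not computed. Without it the log2 fold changes of *Lonp1*, *Clpx* and *Trap1* were -0.70, -0.65 and -0.75. Those of *Spg7* and *Hspd1* were -0.60 and 0.16, and none of these genes had an adjusted p under 0.05 by edgeR. Quercetin pool 3 also held the highest quercetin counts of the disaggregase gene *Clpb* (43, 66 and 30 in control, 20, 25 and 65 in quercetin pools). The presequence protease gene *Pitrm1* was alike (95, 83 and 68 in control, 39, 42 and 120 in quercetin pools), and both were picked after their values were seen. Others of their lists, such as *Hscb*, *Parl* and *Immp1l*, had their lowest quercetin value in that pool. Among the chaperones and proteases with at least 100 counts in every pool (*Hspd1*, *Hspe1*, *Hspa9*, *Afg3l2* and *Htra2*) the deviations of a pool from the gene's mean over all pools were at most 0.40 on the log2 scale.

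**Figure D4:**
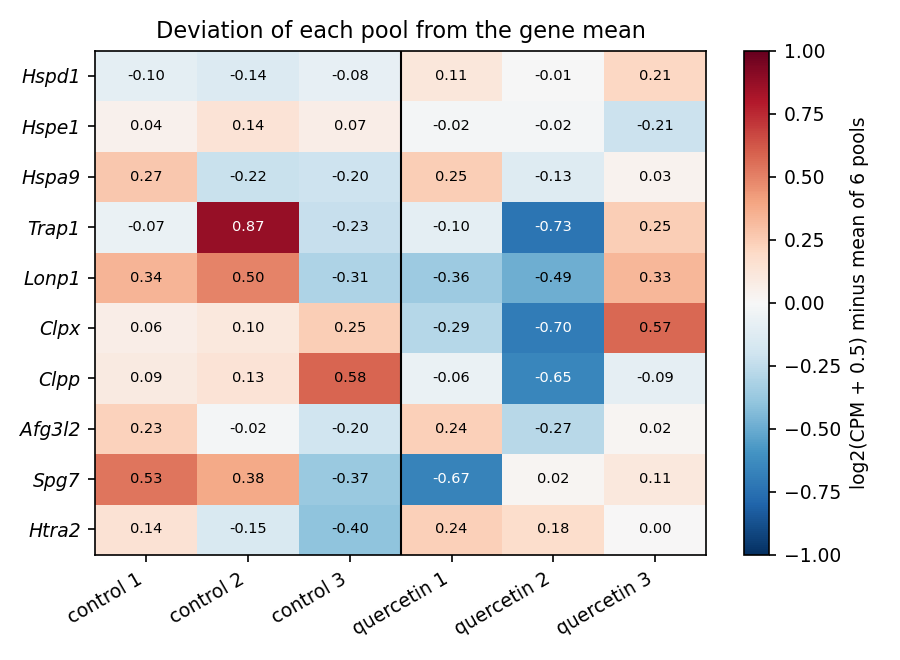
Deviation of each pool from the gene's mean over the 6 pools, as log2(CPM + 0.5), for the 10 genes (rows) and pools (columns), with red above and blue below the mean. The widest values are those of *Trap1* in control pool 2 (0.87) and quercetin pool 2 (-0.73). The row of *Hspd1* is below 0 in all control pools and, at -0.0064, in quercetin pool 2. The rows of *Hspe1* and the scarce *Clpp* are above 0 in all control pools and below 0 in all quercetin pools.

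The rest of the pathway was read from 5 companion lists, which are described by counts only. Of 10 co-chaperone and assembly genes 8 were tested, with 5 positive and 3 negative log2 fold changes and a median of 0.09. The nucleotide exchange factor gene *Grpel1*, which resets the HSPA9 cycle, was at 0.22 (SE 0.19), and *Pam16*, a part of the import motor, at -0.28 (SE 0.32), which was -0.70 without quercetin pool 2 and -0.04 without quercetin pool 3. *Dnaja3*, at a mean below 5 CPM and named after its values were seen, was at 0.48 (SE 0.28, edgeR adjusted p = 0.988). Its quercetin pools lay above its control pools, as for 5.42% of all tested genes, but not with library size alone. Of 15 further proteases and scaffolds 13 were tested, with 9 positive and 4 negative and a median of 0.08. *Oma1*, the stress-activated inner-membrane protease, was at 0.30 (SE 0.23), and *Lactb*, a filament-forming protease-like protein, at -0.44 (SE 0.20; edgeR p = 0.0609, adjusted p = 0.988; exact permutation test p = 0.1). No gene of these 2 lists passed the test, and 0 had an unadjusted p under 0.05 by edgeR.

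Of 19 genes of protein import 14 were tested, 6 positive and 8 negative with a median of -0.02, and 0 passed the test. *Timm21* was at 0.28 (SE 0.17) and *Mtx2* at -0.14 (SE 0.37). Of the 14, 1 gene, *Timm44*, had an unadjusted p under 0.05, beside 4.03% of all tested genes. It encodes the anchor that holds HSPA9 at the inner-membrane channel, and at a mean below 5 CPM it was singled out after its values were seen. It stood at 5.61, 5.29 and 5.40 CPM in control and 3.01, 3.07 and 2.94 CPM in quercetin pools (50, 44 and 48 against 24, 28 and 25 counts). Its quercetin pools lay below its control pools under either scaling, as for 5.17% of all tested genes with TMM scaling. The log2 fold change was -0.85 (SE 0.26), and the difference did not survive adjustment (edgeR p = 0.00976, adjusted p = 0.988, exact permutation test p = 0.1). Leaving out 1 pool at a time gave -0.87 to -0.82. *Mtx1*, also below 5 CPM and named after its values were seen, lay lower under either scaling too (log2 fold change -0.80, SE 0.41, edgeR adjusted p = 0.988).

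Of 11 regulators of the response 7 were tested, 3 positive and 4 negative with a median of -0.02, and 0 had an unadjusted p under 0.05. *Atf4*, the transcription factor of the integrated stress response, was at -0.17 (SE 0.29), and the heme-regulated kinase gene *Eif2ak1*, which relays mitochondrial stress to it, at 0.13 (SE 0.15). *Atf5*, the transcription factor most directly tied to the mammalian response, had 2 counts in quercetin pool 1 and 0 in the other 5 pools. Of 14 genes that ATF4 is known to drive 7 were tested, 4 positive and 3 negative with a median of 0.01, and none passed the test. *Asns* (asparagine synthetase) was at 0.32 (SE 0.26), *Shmt2* of mitochondrial folate metabolism at -0.0034 (SE 0.19), and *Trib3* was at 0 counts in all 6 pools. *Ddit4*, an inhibitor of mTORC1, was the 1 gene of the 7 with an unadjusted p under 0.05, beside 4.03% of all tested genes. It stood at 6.62, 5.53 and 5.18 CPM in control and 4.01, 2.96 and 3.18 CPM in quercetin pools. Its quercetin pools were thus below its control pools, as for 5.17% of all tested genes. The log2 fold change was -0.77 (SE 0.28, edgeR p = 0.0214, adjusted p = 0.988, exact permutation test p = 0.1). *Ddit4* too was singled out after its values were seen.

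**Figure D5:**
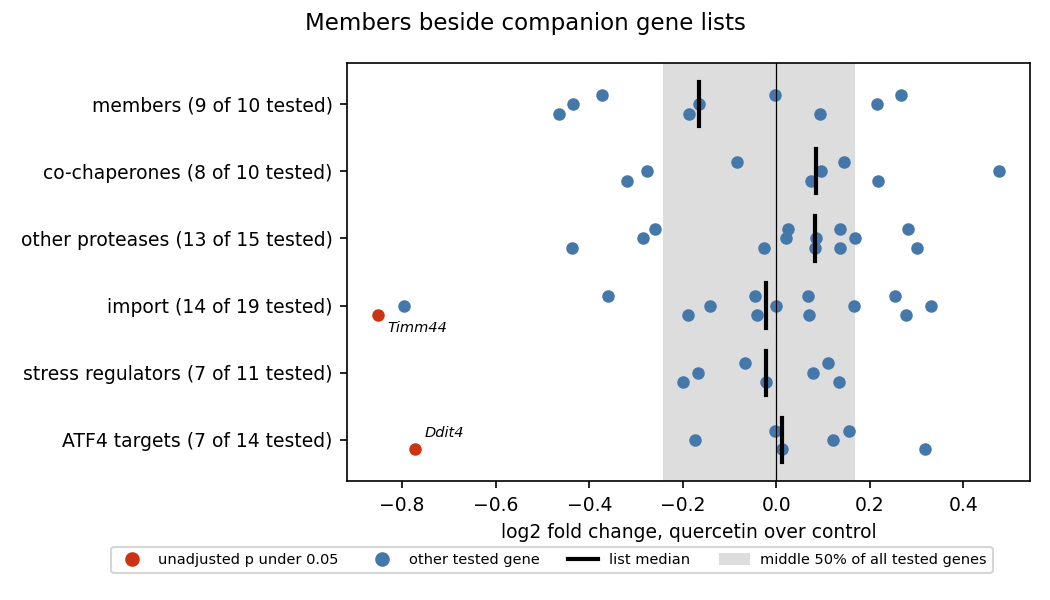
Log2 fold change, quercetin over control (x axis), of every tested gene among the 10 chaperones and proteases and the 5 companion lists, with black bars at list medians and grey shading over the middle 50% of all tested genes. Medians run from -0.17 to 0.09, and the red points with an unadjusted p under 0.05 are *Timm44* and *Ddit4*.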

How the data were processed

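RNA from pools of M II oocytes was made into libraries with the SMART-Seq HT kit. The authors deposited counts of reads per gene, without normalization or pooling, in 1 table of 53465 Ensembl genes, and no column was left unmapped to a sample (0). The submitters' notes name CASAVA 1.8, TopHat2 2.0.6 and mm10 (GRCm38), while the paper's methods name Hisat2 and GRCm38.91. The counting program and its handling of strand and of reads matching several genes are not given in the sources used here, which bears on *Hspd1*, *Hspe1* and *Htra2*. Symbols matched 53274 identifiers and all 101 listed genes.

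Genes were kept by filterByExpr of edgeR 4.0.16 (minimum count 10; 11842 of 24476 genes with a count), scaled by TMM and compared by the quasi-likelihood test in R 4.3.3 without covariates. P-values were adjusted by Benjamini-Hochberg over these genes, and the thresholds were 0.05 and 2-fold. CPM values use TMM-scaled library sizes, and errors are SD over 3 pools. Standard errors (SE) were derived from the fold change and the F statistic. Single values were compared by two-sided exact permutation over pools in Python 3.11.15 with scipy 1.17.1, which cannot go below p = 0.1. Partner ratios had 0.5 added to each count. Depth limits cover counting error only. The fit was tested on simulated data.

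The text names all 10 chaperones and proteases. Of each companion list it names the genes with an unadjusted p under 0.05, or else the smallest p in each direction. Both rules took only genes at a mean of 5 CPM or more, so a scarcer gene of the list can have a smaller p, as *Dnaja3* and *Mtx1* had. The genes and lists were chosen with earlier results of these data known. Groups and replicate numbers came from the sample labels. Deviations of same-numbered pools correlated at 0.296, 0.101 and -0.0303, so pools were not taken as paired. Alternatives were DESeq2 1.42.0, its size factors, library size alone, 2 other count filters, a replicate block, another prior count, and leaving out each pool. Length over all exons, pseudogene counts in the ratio, and counts of the genes that overlap *Htra2* were added after seeing the data.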

Additional observations from a re-analysis of the deposited data

How the results depend on the processing

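Of 502 alternative values 468 were read as unchanged. For the fold change of a single gene this meant the same direction and the same side of the threshold. Counts and list medians had only to stay within a set margin, inside which some medians near 0 changed sign. The co-chaperone median, for example, was 0.086 in the main fit and -0.00086 with library size alone. The adjusted-p count of the 9 tested genes was 0 under every alternative run, and with 3 pools a group the intervals of the low genes (*Trap1*, *Spg7*, *Lonp1*) reach past a fold change of 2. The cause of the changes below was not tested. Leaving out 1 pool at a time moved the number of the 9 genes with an unadjusted p under 0.05 over 0 to 1 (1 without quercetin pool 3, where 12.8% of all tested genes had one), their median log2 fold change over -0.18 to 0.071, and the number without overlap over 2 to 5, beside 16.2% to 31.7% of all tested genes with the same pools (10.6% with all pools). The 5 came without quercetin pool 3, where the share of all genes was 31.7%. It moved the log2 fold change of *Clpx* over -0.65 to 0.071, *Hspa9* over -0.011 to 0.28, *Trap1* over -0.75 to 0.0081, *Afg3l2* over -0.13 to 0.13, *Mtx2* over -0.38 to 0.21, *Atf4* over -0.37 to 0.079 and *Shmt2* over -0.12 to 0.14, and the log2 ratio of *Afg3l2* over *Spg7* over -0.0080 to 0.67. Numbers with an unadjusted p under 0.05 ran over 0 to 1 for co-chaperones and 0 to 2 for other proteases. They ran over 1 to 2 for import and 0 to 1 for ATF4 targets, beside 1.98% to 12.8% of all tested genes. The 2 other proteases and the 2 import genes came without quercetin pool 3, where the share was 12.8%. The import median ran over -0.18 to 0.24. With library size alone 1 of the 9 genes did not overlap, and the share of all genes without overlap was not computed for that scaling. There 1 other protease had an unadjusted p under 0.05, beside 4.28% of all tested genes. Without the low-count filter 2 import genes did, beside 3.19%, and with DESeq2 0 ATF4 targets did, beside 3.24%. *Afg3l2* was at 0.014 by DESeq2 and by its size factors and at 0.0072 without the filter, and *Shmt2* at 0.013, 0.013 and 0.0058.

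With the replicate block, 0 of the 9 genes passed, their median was -0.17 and 3 of the 9 had the same sign in all 3 same-numbered pairs, beside 26.2% of all tested genes. The mean paired difference of the *Hspd1* over *Hspe1* log2 ratio was 0.38 (exact permutation of signs, p = 0.25, the smallest that 3 pairs allow). The block changed no call. Correlations between same-numbered pools averaged 0.122 and 1 of 3 was negative, so the numbers were not read as pairs.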
